A study of Mus musculus with 6 samples.

Results

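Tight junctions seal neighbouring epithelial and endothelial cells to each other. Their membrane proteins (claudins, occludin and the junctional adhesion molecules, or JAMs) bind across the cell border, and inside the cell scaffold proteins of the zonula occludens family, such as ZO-1 and ZO-3, couple them to actin, to polarity complexes and to signalling proteins. Blood cells form no sealed epithelium, but several of these genes are used by haematopoietic cells, and JAMs act there in adhesion to endothelium, stroma, platelets and leukocytes.

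Here 7 genes of this system, of 24063 genes listed, were followed in haematopoietic stem and early progenitor cells: the scaffolds Tjp1 (ZO-1), Tjp3 (ZO-3) and Cgn (cingulin), the adhesion molecules F11r (JAM-A), Jam2 (JAM-B) and Jam3 (JAM-C), and Ocln (occludin). They were matched by gene symbol, and all 7 were found in all 6 libraries. They were chosen with the difference between Asxl2-/- and wild-type cells already known, so their differences between the groups are given as a description. The number of them past the threshold of the test across all genes is printed only as a count beside that of all genes.

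RNA was sequenced from bone-marrow LSK cells, which lack lineage markers and carry Sca-1 and c-Kit, in 3 Asxl2-/- and 3 wild-type C57BL/6 mice. Asxl2-/- cells came from Mx1-cre Asxl2 fl/fl mice, in which Cre removes exon 11 of Asxl2, a gene for a chromatin regulator. Wild-type cells came from Mx1-cre control mice without the floxed allele. All mice had received pIpC, a synthetic RNA duplex that provokes interferon and so switches on the Mx1 promoter, so Cre and the interferon stimulus were common to both groups. The Mx1 promoter also responds outside the blood lineages, and the age and sex of the mice were not given in the sources used here. LSK cells are a mixture, and in such bulk samples fewer cells of a type and less RNA per cell cannot be told apart.

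The files were of 2 kinds. Asxl2-/- replicates 1 and 3 and wild-type replicate 2 had 1 count per transcript (gene-count files), and Asxl2-/- replicate 2 and wild-type replicates 1 and 3 had 1 count per exon (exon-count files), which were summed. Total counts were 25528540 to 29136012 in the gene-count files and 53147729 to 55032075 in the exon-count files. In a sum over exons a spliced read can count more than once, so levels are best compared within a kind of file, and every fitted fold change has the kind of file as a covariate. Exon 11 of Asxl2 took 28 of 4804 Asxl2 counts (0.583%) in Asxl2-/- replicate 2 and 10.3% and 12.0% in wild-type replicates 1 and 3. Xist was at 1070 to 2350 CPM (counts scaled per 1000000 of a library) in the Asxl2-/- libraries and at 13.0 to 61.3 in the wild-type ones, and the 4 Y-linked genes examined were at 32.7 or more in wild type and at 0.0705 or less in Asxl2-/-. Genotype and sex cannot be told apart in any comparison below.

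The mouse Tjp1 gene gives ZO-1 proteins with and without an internal stretch, often called the alpha motif, that 1 exon encodes. Its sequence is shown because the exon counts allow both forms to be looked for. In the files this is exon 20 of the 28 exons of NM_009386, at chr7:65314093-65314332 on the mm10 build (minus strand), 240 bases or 80 codons long. The second transcript listed, NM_001163574, lacks it. Both sequences below come from the GENCODE vM1 transcripts of mouse, matched to the files by the lengths of the exon and its neighbours, and run 5′ to 3′. In the second, capitals mark the first bases of exon 21 where it joins directly to the end of exon 19.
Tjp1 alternative exon: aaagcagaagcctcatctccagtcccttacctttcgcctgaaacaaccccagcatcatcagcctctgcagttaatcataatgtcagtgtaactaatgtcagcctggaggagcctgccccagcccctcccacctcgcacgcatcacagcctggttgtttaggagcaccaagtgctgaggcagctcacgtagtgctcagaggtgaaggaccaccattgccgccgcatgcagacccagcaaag
Tjp1 junction without the alternative exon: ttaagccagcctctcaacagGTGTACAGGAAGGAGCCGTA

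Tjp1 was the member with the lowest level in Asxl2-/- cells relative to wild type. This gene (NM_009386, chr7:65296165-65371244, 7054 bases of exon) encodes ZO-1, which binds the tails of claudins, JAM-A and other junction proteins. Its counts were 430, 1342 and 564 over the Asxl2-/- libraries (replicates 1 to 3), and 6949, 3053 and 7896 over the wild-type libraries. After scaling these were 15.3, 25.2 and 19.9 CPM against 133, 106 and 167 CPM. The groups did not overlap, and the highest Asxl2-/- library stood far below the lowest wild-type library. The fitted log2 fold change (Asxl2-/- over wild type) was -2.58 (SE 0.15), a level 5.99-fold lower. With the effect of the file kind removed, Asxl2-/- cells had a mean log2 CPM of 4.39 ± 0.19 (SD, n = 3) and wild-type cells one of 6.97 ± 0.16 (SD, n = 3). Within the gene-count files alone the log2 ratio was -2.59, and within the exon-count files alone it was -2.57.

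The transmembrane JAMs lay the other way. JAM-A, the product of F11r (NM_172647, chr1:171437561-171464593), is an immunoglobulin-type adhesion molecule of epithelia, endothelia, platelets and leukocytes whose tail binds ZO-1. F11r stood at 15.3, 20.4 and 11.2 CPM in Asxl2-/- replicates 1 to 3 and at 8.92, 3.75 and 5.34 CPM in wild-type replicates 1 to 3. Every Asxl2-/- library was above every wild-type library, and the fitted log2 fold change was 1.66 (SE 0.26), or 3.17-fold higher. The log2 ratio was 1.82 by gene-count files alone, and by exon-count files alone 1.52.

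JAM-C, encoded by Jam3 (NM_023277, chr9:27097384-27155421), binds JAM-B on neighbouring cells and the integrin Mac-1 on leukocytes. Jam3 stood at 4.44, 4.08 and 3.10 CPM in the Asxl2-/- libraries and at 2.13, 1.08 and 0.801 CPM in the wild-type libraries. The groups did not overlap here either, with a log2 fold change of 1.63 (SE 0.43). The wild-type libraries varied most for this gene, with an SD of 0.68 on the log2 scale against 0.26 in Asxl2-/- cells. JAM-B, its partner encoded by Jam2 (NM_023844, chr16:84774123-84826375), was low throughout, at 1.35, 0.846 and 0.776 CPM in the Asxl2-/- libraries and 0.787, 0.278 and 0.485 CPM in the wild-type libraries. These ranges overlapped, since wild-type replicate 1 was above Asxl2-/- replicate 3. Its log2 fold change of 1.07 had an SE of 0.55, and the log2 ratio was 1.93 by gene-count files alone but 0.41 by exon-count files alone.

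Tjp3 (NM_013769, chr10:81273188-81291267), which encodes the paralog ZO-3, stood at 14.1, 20.6 and 12.6 CPM in Asxl2-/- replicates 1 to 3 and at 12.8, 9.48 and 12.0 CPM in wild type. The ranges overlapped by a little across the kinds of file, and did not overlap within either kind. The log2 fold change was 0.62 (SE 0.13), or 1.53-fold. Of the 3043 exon bases of Tjp3, 60 (1.97%) were shared with Apba3, so reads there could belong to either gene.

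Ocln and Cgn were near the limit of detection. Ocln (NM_008756, chr13:100497367-100552498), which encodes the membrane protein occludin, had 11, 28 and 10 counts in the Asxl2-/- libraries and 27, 28 and 37 in the wild-type libraries. That made 0.390, 0.526 and 0.353 CPM against 0.518, 0.973 and 0.780 CPM, with 1 overlap between Asxl2-/- replicate 2 and wild-type replicate 1. The log2 fold change was -0.82 (SE 0.42). Cgn (NM_001037711, chr3:94760070-94786515), whose product cingulin links ZO proteins to myosin and microtubules, had 2, 1 and 4 counts in Asxl2-/- cells and 1, 0 and 4 in wild type. The 0 in wild-type replicate 2 allows up to 0.103 counts per 1000000 (3 counts of its unscaled total, counting error only). Cgn did not pass the filter on low counts. A difference in Cgn was not detectable at this depth.

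**Figure D1:**
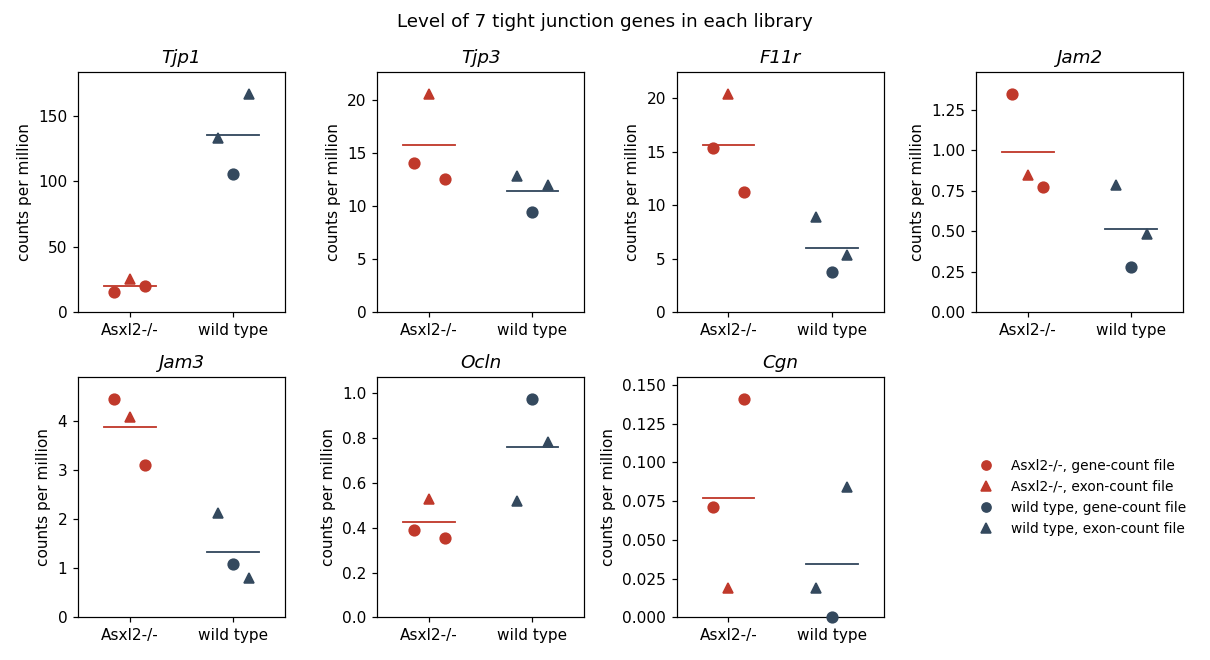
CPM (linear axes from 0, a different scale in each panel) of the 7 genes in each library. Circles are gene-count files, triangles exon-count files, and lines group means. Tjp1 sits at 15.3 to 25.2 in Asxl2-/- and 106 to 167 in wild type, F11r and Jam3 are higher in all 3 Asxl2-/- libraries, and Cgn stays at 0.141 or below.

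Of the 7 genes, 6 passed the filter on low counts. Tjp1 and F11r, 2 of the 7, were among the 331 of 14145 tested genes (2.34%) with an adjusted p under 0.05 by edgeR's quasi-likelihood test with Benjamini-Hochberg adjustment. Of all tested genes 288 (2.04%) were past that threshold and higher in Asxl2-/- cells, as F11r was, and 43 (0.304%) were lower, as Tjp1 was. The contrast was the one that the genes were chosen on, so nothing is read from that count, which was 1 without any one library except wild-type replicate 1, as F11r left the set. The log2 fold change of F11r ranged from 1.38 to 1.87 over its alternatives. Among all tested genes, 20 had a lower log2 fold change than Tjp1, and 9 of these had an adjusted p under 0.05. The 9, and so also the 43, include the 4 Y-linked genes examined above (-11.82 to -10.70). In 5 of the 7 genes (Tjp1, Tjp3, F11r, Jam2 and Jam3) the groups did not overlap within either kind of file, in the same direction in both, as was so for 48.6% of all tested genes. The median log2 fold change of the 6 was 0.84, and that of all tested genes was 0.00.

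Levels of different genes were compared as CPM per kb of transcript. In wild-type cells Tjp1 led in all 3 libraries, at 18.9, 15.0 and 23.6 CPM per kb, followed by Tjp3 at 3.12 to 4.19, F11r at 1.51 to 3.59 and Jam3 at 0.407 to 1.08. Tjp3 and F11r overlapped in wild type, and so did Ocln (0.162 to 0.305) and Jam2 (0.0577 to 0.163) below them. In Asxl2-/- cells F11r led in all 3 libraries, at 6.18, 8.23 and 4.53 CPM per kb. Its range overlapped with that of Tjp3 (4.14 to 6.77). Tjp1 (2.16 to 3.57) overlapped with Jam3 (1.57 to 2.25), so that the most abundant of the 7 transcripts in wild type stood below F11r and Tjp3 in every Asxl2-/- library.

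Exon counts showed whether the lower Tjp1 level was shared along the transcript. Only Asxl2-/- replicate 2 and wild-type replicates 1 and 3 had them, so these tests compare libraries and not conditions. Over the 27 exons other than the alternative one, the log2 ratio of Asxl2-/- replicate 2 to the mean of both wild-type libraries lay between -3.27 (exon 12) and -2.06 (exon 6), with a median of -2.61. Each of the 27 exons was thus lower, from the first to the last. The share of Tjp1 counts that an exon took does not use the level of the gene and was tested with two-sided Fisher's exact tests, adjusted over the 28 exons. No exon had an adjusted p under 0.05. In Asxl2-/- replicate 2 the 27 exons had from 12 (exon 2) to 160 (exon 28) counts, so modest shifts in share could be missed. The smallest adjusted p was 0.513 against wild-type replicate 1, 0.430 against replicate 3, and 0.850 between both wild-type libraries, with 2, 1 and 0 exons at an unadjusted p under 0.05.

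The alternative exon, whose sequence is given above, was almost unused. It had 2 of 1342 Tjp1 counts in Asxl2-/- replicate 2, a share of 0.149% (95% Wilson interval 0.0409 to 0.542). In wild-type replicates 1 and 3 it had 3 of 6949 counts (0.0432%, 0.0147 to 0.127) and 6 of 7896 counts (0.0760%, 0.0348 to 0.166). The intervals overlapped. Per base, its coverage was 5.16%, 1.44% and 2.45% of that of its neighbouring exons, in the same order, so nearly all Tjp1 RNA in these cells was of the form without the exon. With 2 to 6 counts a difference in its use between the libraries was not detectable. The transcript NM_001163574 differs from NM_009386 also by 60 more bases at another exon (144 against 84). In the gene-count files NM_009386 and NM_001163574, which share nearly all their reads, had 430 and 430 counts in Asxl2-/- replicate 1, 564 and 564 in replicate 3, and 3053 and 3052 in wild-type replicate 2.

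**Figure D2:**
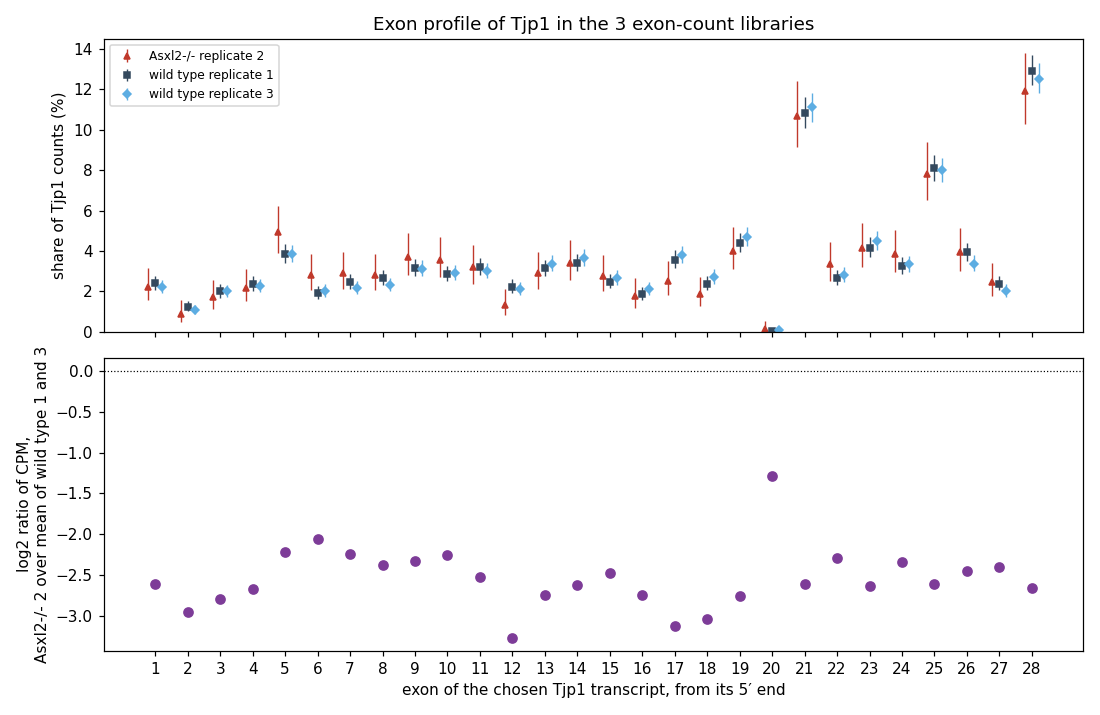
Top, share of Tjp1 counts in each of the 28 exons in the 3 exon-count libraries (bars are 95% Wilson intervals). Bottom, log2 ratio of CPM of Asxl2-/- replicate 2 to the mean of wild-type replicates 1 and 3 for each exon. The intervals of the shares overlap in every exon, and the share of exon 20 is near 0. The log2 ratios of the other 27 exons lie between -3.27 and -2.06.

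The same view of the other genes was narrower. F11r had at least 10 counts in each exon-count library in 10 of its 10 exons, all higher in Asxl2-/- replicate 2, with log2 ratios of 1.15 to 1.79 and a median of 1.51. For Tjp3 20 of 21 exons could be compared, and these lay between 0.38 and 1.12 with a median of 0.70. The remaining one was its first exon. The 3 Tjp3 transcripts listed begin at different first exons, and the counts lay in that of NM_001282096 (chr10:81285601-81285781), with 34 in Asxl2-/- replicate 2 and 17 and 21 in wild-type replicates 1 and 3. The first exon of NM_013769 had 1, 2 and 2 counts and that of NM_001282095 had 0 in each, so among the first exons listed the counts lay almost entirely in the one nearest to the 3′ end of the gene. In Jam2 and Jam3 only 1 exon each reached 10 counts in each library, with log2 ratios of 0.43 and 1.03.

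Other junction genes were taken from lists of 81 genes in 8 groups, of which 53 passed the filter on low counts. By edgeR's quasi-likelihood test with Benjamini-Hochberg adjustment over all tested genes, 1 of the 53 was past the threshold. It was Mllt4, which encodes afadin, an actin-binding partner of nectins, JAM-A and ZO-1. Mllt4 stood at 29.9, 27.4 and 26.3 CPM in Asxl2-/- replicates 1 to 3 and at 15.5, 11.7 and 11.3 CPM in wild type, with no overlap. It rose by 1.14 on the log2 scale (SE 0.16, adjusted p = 0.0319). Its log2 fold change was 1.03 to 1.26 over all alternatives, but the call was lost without any one of Asxl2-/- replicates 1 and 3 and wild-type replicates 2 and 3, with an adjusted p of up to 0.131. At an unadjusted p under 0.05, 17 of the 53 were higher and 4 lower. In either direction 27.7% of all tested genes had such a p (2126 higher, 1786 lower). DESeq2 called 12 raised and 4 lowered, where it called 17.1% of all genes with an adjusted p in either direction (1181 higher, 1148 lower). By limma-voom 2 were raised, Mllt4 and Jup, where it called 3.04% of all tested genes (374 higher, 56 lower). The counts by list below are set beside these shares, 2.34% for edgeR included. The lists were also chosen with earlier results of these data known, so their counts are a description. The median log2 fold change of the 53 was 0.30.

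Scaffolds of the tight junction were the group with the most tested genes, 14 of 14, and 12 had a positive log2 fold change (median 0.71). Mllt4 was past the threshold, and 4 of the 14, Mllt4 included, had an unadjusted p under 0.05. DESeq2 called 4 of them raised and limma-voom 1, where these called 17.1% and 3.04% of all genes in either direction. The polarity proteins, which set apical from basal surfaces, had 6 of 8 genes tested, a median of 0.25 and no adjusted p under 0.05 by edgeR, against 2 at an unadjusted p under 0.05 and 1 by DESeq2. Pard3b, of the Par polarity complex, had the smallest p of them. It stood at 18.2, 14.7 and 15.3 CPM in Asxl2-/- and 9.38, 7.47 and 5.72 CPM in wild type, and its log2 fold change was 1.06 (SE 0.23), for which edgeR gave an adjusted p of 0.0679. For Pard6g the log2 fold change was 0.44 (SE 0.12, adjusted p = 0.0938) and for the kinase gene Prkci 0.22 (SE 0.11, adjusted p = 0.228).

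Among the claudins, the strand-forming proteins of the junction, 7 of 25 genes passed the filter and 9 were listed at 0 in every library. A count of 0 allows 0.0545 to 0.118 counts per 1000000 of the unscaled total, depending on the library. The list includes 2 genes since renamed, Cldn25 (now Cldnd1) and Cldn26 (now Tmem114). No claudin had an adjusted p under 0.05 by edgeR, 2 were higher and 2 lower at an unadjusted p under 0.05, and DESeq2 called 1 raised and 2 lowered. The median log2 fold change was -0.22. Cldn13 was the most abundant of the 3 with the smallest p, at 12.9, 7.08 and 19.6 CPM in Asxl2-/- cells and 30.0, 36.7 and 50.7 CPM in wild type. The groups did not overlap, and the log2 fold change was -1.84 (SE 0.40, adjusted p = 0.0693). Cldn12 had a log2 fold change of 0.72 (SE 0.18) and Cldn1 one of -2.67 (SE 0.68), each with an adjusted p of 0.0874 by edgeR. Cldn1 stood at 0.106 to 0.169 CPM in Asxl2-/- cells and at 0.295 to 1.70 CPM in wild type, and its log2 ratio was -4.00 by gene-count files alone but -1.43 by exon-count files alone. For Cldn13 these ratios were -1.18 and -2.51.

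Membrane proteins near the JAMs and at tricellular contacts gave few measurable genes, 2 of 4 in the JAM-related list (median log2 fold change 0.82) and 3 of 5 in the tricellular and MARVEL list (median 0.37). Esam, an endothelial and platelet adhesion molecule that also marks haematopoietic stem cells, stood at 18.3, 16.1 and 11.4 CPM in Asxl2-/- libraries and 8.54, 2.99 and 4.81 CPM in wild type. Its log2 fold change of 1.76 (SE 0.38) had an adjusted p of 0.0689 by edgeR, the groups did not overlap, and DESeq2 called it raised. Cxadr, a virus receptor of epithelia, was below 0.43 CPM throughout, with a log2 fold change of -0.12 (SE 0.61). The tricellular receptor gene Lsr stood at 9.83, 10.6 and 9.80 CPM against 3.61, 5.84 and 2.40 CPM, and its log2 fold change was 1.29 (SE 0.29), for which edgeR gave an adjusted p of 0.0733. Marveld2, which encodes tricellulin, had one of 0.37 (SE 0.22) and Ildr1 one of -0.63 (SE 0.44), with adjusted p of 0.304 and 0.384.

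The leukocyte integrins that bind JAMs had 5 of 5 genes tested and a median log2 fold change of 0.04. Itgam, the alpha chain of Mac-1 and thus of the receptor for JAM-C, stood at 43.8, 32.5 and 28.6 CPM in Asxl2-/- and 14.1, 20.0 and 14.9 CPM in wild type. The groups did not overlap, and Asxl2-/- cells had a log2 fold change of 1.01 (SE 0.19), for which edgeR gave an adjusted p of 0.0528. For Itgb1 the log2 fold change was -0.06 (SE 0.09, adjusted p = 0.716), and for Itga4 it was 0.04 (SE 0.16, adjusted p = 0.907). Both encode chains of the receptor for JAM-B, and neither is a chain of Mac-1. The RNA of the alpha chain alone does not give the level of Mac-1. No integrin was past the threshold by edgeR, 1 had an unadjusted p under 0.05, and DESeq2 called 1.

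Of the signalling partners of ZO proteins 7 of 8 genes were tested, with a median of 0.30, and none had an adjusted p under 0.05 by edgeR. At an unadjusted p under 0.05, 3 were higher and 2 lower (27.7% of all tested genes had such a p), and DESeq2 called 2 raised and 2 lowered (17.1% of all genes). Gja1, which encodes connexin 43, a gap junction protein that binds ZO-1, stood at 15.3, 7.84 and 17.4 CPM in Asxl2-/- cells and 24.5, 25.6 and 30.2 CPM in wild type (log2 fold change -1.22, SE 0.29, adjusted p = 0.0760). Cttn, for the actin-binding cortactin, had a log2 fold change of 0.54 (SE 0.13, adjusted p = 0.0779), and Rab13, for a vesicle GTPase of the junction, one of 0.98 (SE 0.27, adjusted p = 0.0994).

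Adherens junction genes had 9 of 12 tested and a median of 0.24. None passed by edgeR, 3 had an unadjusted p under 0.05 and a higher level, and DESeq2 and limma-voom each called 1. Jup, for plakoglobin, which links cadherins to the cytoskeleton, stood at 15.0, 15.4 and 13.9 CPM in Asxl2-/- and 8.50, 5.04 and 5.08 CPM in wild type, without overlap (log2 fold change 1.34, SE 0.24, adjusted p = 0.0506). Ctnnd1 and Ctnna1, for p120 catenin and alpha-catenin, had log2 fold changes of 0.28 (SE 0.08, adjusted p = 0.105) and 0.24 (SE 0.08, adjusted p = 0.129).

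**Figure D3:**
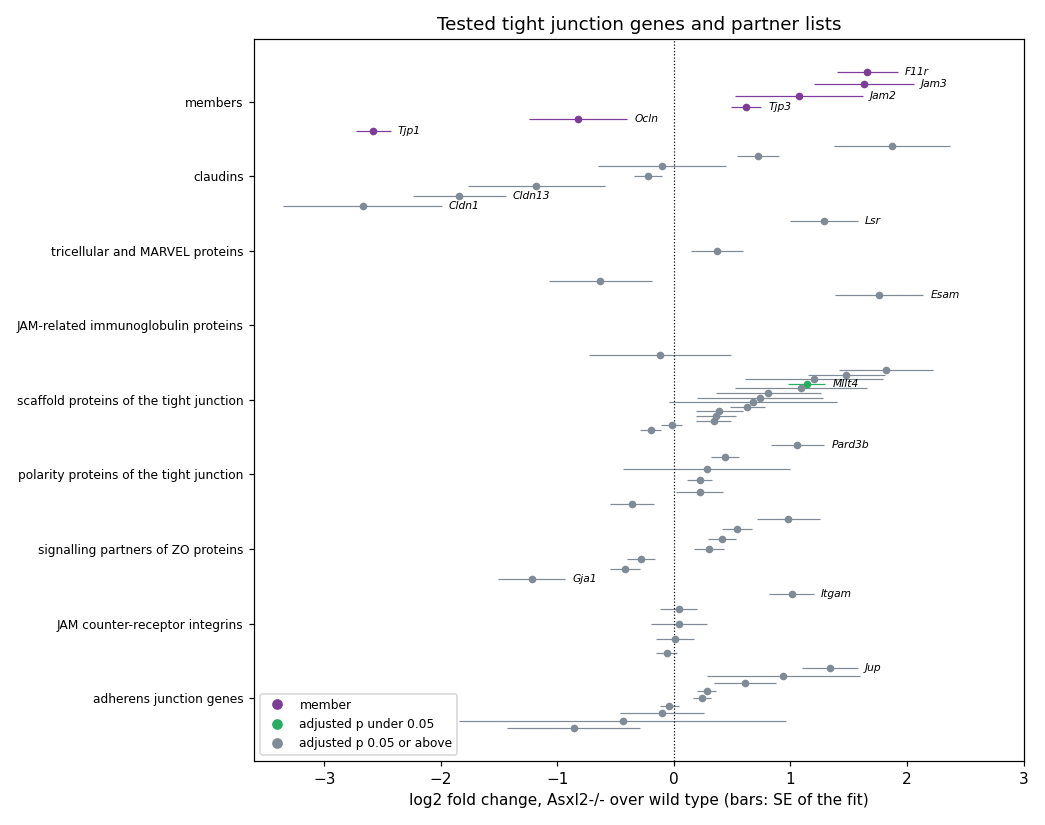
Log2 fold change (Asxl2-/- over wild type) of the tested genes, with bars for the SE of the fit. The 6 tested members of the 7 genes are on top, and the 8 lists below. Tjp1 at -2.58 is the lowest of the members, and Mllt4 at 1.14 is the 1 gene of the lists with an adjusted p under 0.05.

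Markers of other cell types were looked at because JAMs, Esam and claudins are also made outside LSK cells. Epithelial markers summed to 1.97 to 3.19 CPM in Asxl2-/- libraries and 1.83 to 4.20 CPM in wild type, and 5 of the 10 (Krt19, Krt5, Krt14, Esrp1 and Grhl2) had at most 2 counts in every library. Endothelial markers summed to 208 to 284 CPM in Asxl2-/- and 167 to 245 CPM in wild type, with 8 of 10 log2 fold changes above 0 and none past the threshold by edgeR, 5 of them at an unadjusted p under 0.05, 3 called by DESeq2 and 0 by limma-voom. Stromal markers stood at 145 to 319 against 48.5 to 204 CPM, with 8 of 8 above 0, 0 at an unadjusted p under 0.05 by edgeR, and 0 called by DESeq2 or limma-voom. The megakaryocyte, stem cell and B-lymphoid lists also lay higher in Asxl2-/- libraries, the direction in which the JAMs lay. Of all tested genes, 2.04% were past the threshold and higher. All 9 tested of the 10 megakaryocyte markers had a positive log2 fold change, 5 of them past the threshold, and the list summed to 350 to 880 CPM in Asxl2-/- and 175 to 384 CPM in wild type. Stem cell markers summed to 203 to 228 against 102 to 154 CPM (8 of 8 above 0, 2 past the threshold). B-lymphoid markers summed to 164 to 172 against 39.9 to 58.6 CPM (8 of 8 above 0, 7 past the threshold). Their part in the levels of the junction genes was not tested.

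The genes whose profile was most like that of Tjp1 were found by the root mean square distance between gene-centred log2 CPM over the 6 libraries, with the effect of the file kind removed. The nearest of the 14144 other tested genes were 1110032F04Rik (distance 0.132), Sfrp4 (0.192), Paqr9 (0.251), Asb17 (0.264) and Foxh1 (0.286), and the median distance of all genes was 1.31. None of the 5 is a member of the lists of junction genes. Sfrp4 encodes a secreted Wnt antagonist, and stood at 0.497 to 0.881 CPM in Asxl2-/- and 3.40 to 5.69 CPM in wild type. Paqr9, a membrane receptor gene, stood at 2.24 to 6.38 against 15.0 to 21.7 CPM. In Asxl2-/- replicates 1 to 3, 1110032F04Rik had 3, 7 and 3 counts and Foxh1 had 7, 14 and 6. At such counts the prior count of 2, added before the log was taken, narrows differences, so their distances depend on it. All 5 were well below the CPM of Tjp1 in wild type. The likeness rests on the same 6 libraries, and so on the group difference that Tjp1 was chosen on.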

How the data were processed

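RNA-seq counts from LSK cells of 3 Asxl2-/- and 3 wild-type mice were used, with groups taken from the library titles. The deposited values were whole-number counts of reads from poly(A)-selected, unstranded libraries on mm10, which the authors gave per RefSeq transcript in 3 files and per exon in 3. The submitters' processing notes name STAR, featureCounts and DESeq2, with no role or version stated. Without strand, reads of overlapping genes cannot be told apart. Each symbol was represented by the transcript with the longest summed exon length, and exon counts were summed, which counts junction reads more than once.

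All 24063 genes were filtered by filterByExpr, and TMM scaling was computed on the 14145 that passed. These were tested with the quasi-likelihood functions glmQLFit and glmQLFTest of edgeR 4.0.16 (R 4.3.3, two-sided, file kind plus group). The fit left 3 residual degrees of freedom, and Benjamini-Hochberg adjustment and a threshold of 0.05 were used. The edgeR p-values set the difference between the groups against the spread between these samples, which was estimated with information shared across genes. CPM is the count per 1000000 of the scaled library size, and log2 CPM had a prior count of 2. Removal of the file kind from the same 6 libraries makes the SDs somewhat too small. Exon shares had 95% Wilson intervals and two-sided Fisher's exact tests, computed in Python 3.11.15 with scipy 1.17.1. Intervals and floors (3 counts) cover counting error only, and the floors use the library totals before TMM scaling.

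The 7 genes and all lists were chosen with earlier results of these data known. Of each list, genes past the threshold were named, otherwise the 3 with the smallest p, and the 5 genes nearest to Tjp1. Alternatives were DESeq2 1.42.0, limma-voom (limma 3.58.1), other scalings and filters, a replicate block, a fit without the file kind, other transcript choices and each library left out. Values of 1 gene of the lists are not reported here.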

Additional observations from a re-analysis of the deposited data

How the results depend on the processing

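The log2 fold changes of the 6 tested genes kept their sign in every alternative in which they were fitted, and Jam2 could not be fitted with at least 10 counts in every library. Tjp1 ranged from -2.76 to -2.48, Tjp3 from 0.44 to 0.74, F11r from 1.38 to 1.87, Jam2 from 0.41 to 1.93, Jam3 from 1.38 to 2.04 and Ocln from -1.39 to -0.29. As these genes were chosen on this contrast, the ranges are a description. The number of all genes past the threshold, 331, was 2329 (1181 higher) with DESeq2, 161 with library size only, and 9 (without wild-type replicate 3) to 1312 (without wild-type replicate 1) with a library left out. It was also moved to 16 without Asxl2-/- replicate 1, 659 without replicate 2, 96 without replicate 3 and 124 without wild-type replicate 2. Of the 7 genes, 2 in the reported fit, the number was 4 with DESeq2, 1 with library size only, no file kind or the longest exon, and 1 to 3 with a library left out. Of the other junction genes, 1 in the reported fit, it was 16 with DESeq2, 2 with limma-voom or no filter, 0 with library size only or the longest exon, 4 without the file kind, and 0 to 7 with a library left out. The log2 fold changes of Cldn1 (-3.96 to -1.42), Cldn13 (-2.50 to -1.18), Cxadr (-0.43 to 0.57) and Ildr1 (-1.28 to 0.02) moved by more than 1.5-fold, the last 2 with a change of sign, and Itga4 (-0.13 to 0.19) and Itgb1 (-0.13 to 0.04) also changed sign. The cause was not tested.

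Whether replicate numbers pair the samples could not be decided. Deviations of same-numbered libraries correlated at 0.294, -0.008 and -0.003, and only replicate 1 of Asxl2-/- correlated best with its own number. The effect of the file kind was not removed here. Same-numbered libraries were always of different file kinds, which can lower these correlations. With the replicate block without the file kind, 380 genes, 1 of the 7 and 2 of the other junction genes were past the threshold. With both a replicate block and the kind of file in the fit, which leaves a single residual degree of freedom, these were 5179 (2767 higher), 5 and 32.

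Taken as a share of the counts of the exon and its neighbours, the alternative exon of Tjp1 was at 1.01%, 0.283% and 0.480% in Asxl2-/- replicate 2 and wild-type replicates 1 and 3. Dividing the shares by the length of the exon leaves their ratios between libraries unchanged, so that alternative has no value of its own. Depth limited the values of Cgn, Jam2, Ocln and the alternative exon.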

Other observations

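Genes next to Tjp1 were listed after its values were seen. Of 6 genes within 500 kb of it on chromosome 7, 4 were tested. Ndnl2, 423 kb away, had a log2 fold change of -0.27 (SE 0.11), Tarsl2, 274 kb away, one of -0.34 (SE 0.18), Tm2d3, 322 kb away, one of -0.14 (SE 0.11) and Pcsk6, 491 kb away, one of 0.38 (SE 0.63), with adjusted p of 0.184, 0.262, 0.447 and 0.731 by edgeR's quasi-likelihood test. Their groups overlapped. The closest, Fam189a1 at 140 kb, stood at 0.247 CPM or below and was not tested, nor was 1810008I18Rik.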
